A study of Rattus norvegicus with 10 samples.

Results

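The genes described here are 7 genes through which astrocytes, the star-shaped support cells of the brain, handle water, glutamate and cell-to-cell coupling: Aqp4, Slc1a2, Slc1a3, Glul, Gja1, Gjb6 and Atp1b2. They were taken by gene symbol from the 32623 genes of the deposited table. Each symbol had exactly 1 row, so no choice between rows was needed, and all 7 were among the 15169 genes tested. The set was chosen by gene name and role with earlier results of these libraries known, their FPKM levels and spread included, so the levels and the spread between libraries below are given as a description, without a test.

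The libraries hold poly(A) RNA from cerebral cortex of adult male Sprague-Dawley rats, 5 in an electroacupuncture (EA) group and 5 in a control group. EA rats received alternating low and high frequency current in the milliampere range through needles at the head points Baihui and Shuigou. Control rats were bound for the same time, and no needling is described for them. Every rat was then given pentobarbital and perfused with saline before the cortex was stripped, so both groups share the binding, the anesthetic and the perfusion. The EA group thus differed from the control group by needling and current together, and these cannot be told apart. The replicate numbers imply 1 rat per library, which no source says in words, so p-values measure the spread between libraries.

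As background, aquaporin 4 (Aqp4) is the main water channel of the brain and sits mostly in the astrocyte endfeet that wrap blood vessels. The carriers Slc1a2 (GLT-1) and Slc1a3 (GLAST) clear glutamate from the synaptic cleft, driven by the sodium gradient, and glutamine synthetase (Glul) turns that glutamate into glutamine, which returns to neurons. The connexins Gja1 (connexin 43) and Gjb6 (connexin 30) form the gap junctions that join astrocytes into a network. Atp1b2 is the beta subunit of the sodium pump found on astrocytes, and the pump keeps up the gradient on which glutamate uptake depends.

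None of the 7 genes was called higher or lower after EA. What set them apart from one another was the spread between libraries. Aqp4, Slc1a2 and Slc1a3 differed several-fold between libraries of the same group. Glul, Gja1, Gjb6 and Atp1b2 differed by 1.11-fold (Atp1b2) to 1.48-fold (Gjb6) between the highest and the lowest of the 10 libraries.

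The promoters of the 3 genes with the widest spread and of Atp1b2, the gene with the narrowest, are shown to set their sequence beside these levels. Each window runs from 250 bases before to 50 bases after an annotated RNA start, in RefSeq's GRCr8 build, 5′ to 3′ on the strand of the gene. The deposited files use the Rnor_6.0 build, so these coordinates are not those of the files. The first listed window lies at chr18:6798793-6799092 (minus strand) for Aqp4, at chr3:109459859-109460158 (plus strand) for Slc1a2, at chr2:59557759-59558058 (minus strand) for Slc1a3 and at chr10:54823659-54823958 (minus strand) for Atp1b2. Capitals mark matches on either strand to TATAAA (known as the TATA box), GGGCGG (the GC box), CCAAT (which names its own box) or TTCNNNGAA (the core letters bound by STAT factors).
Aqp4: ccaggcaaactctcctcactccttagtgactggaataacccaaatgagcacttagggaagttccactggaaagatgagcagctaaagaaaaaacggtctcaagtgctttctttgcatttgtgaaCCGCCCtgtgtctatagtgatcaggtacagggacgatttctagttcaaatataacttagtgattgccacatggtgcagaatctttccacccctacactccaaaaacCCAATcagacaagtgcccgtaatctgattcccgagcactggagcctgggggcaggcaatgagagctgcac
Slc1a2: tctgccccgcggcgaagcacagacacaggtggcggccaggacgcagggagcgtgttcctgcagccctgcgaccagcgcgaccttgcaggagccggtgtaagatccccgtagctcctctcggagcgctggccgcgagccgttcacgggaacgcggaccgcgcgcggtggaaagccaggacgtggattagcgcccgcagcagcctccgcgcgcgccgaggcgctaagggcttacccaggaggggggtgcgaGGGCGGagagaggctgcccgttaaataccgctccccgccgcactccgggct
Slc1a3: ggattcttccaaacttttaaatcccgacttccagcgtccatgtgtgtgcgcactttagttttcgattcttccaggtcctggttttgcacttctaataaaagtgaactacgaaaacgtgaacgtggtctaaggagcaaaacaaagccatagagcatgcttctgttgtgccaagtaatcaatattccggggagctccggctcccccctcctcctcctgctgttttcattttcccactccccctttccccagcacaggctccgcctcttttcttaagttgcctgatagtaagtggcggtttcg
Atp1b2: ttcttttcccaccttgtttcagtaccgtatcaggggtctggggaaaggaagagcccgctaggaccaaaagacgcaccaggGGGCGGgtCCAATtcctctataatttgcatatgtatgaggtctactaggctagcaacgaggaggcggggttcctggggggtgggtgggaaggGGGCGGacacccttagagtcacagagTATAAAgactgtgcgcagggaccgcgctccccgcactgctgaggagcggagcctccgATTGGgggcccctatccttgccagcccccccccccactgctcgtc

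The Aqp4 window held 1 GC box and 1 CCAAT box, at a GC content of 47.3%. The Slc1a2 window held 1 GC box and no other match, at a GC content of 71%. No match lay in the Slc1a3 window. The Atp1b2 window held 1 TATA box, 2 GC boxes and 2 CCAAT boxes. The 7 genes have 13 such windows in all. The Atp1b2 window was the only one of the 13 with a TATA box, and none held the STAT letters. Among all 33469 windows of the reference table, 14.2% held TATAAA, 33.1% GGGCGG, 37.5% CCAAT and 8.87% TTCNNNGAA on either strand. These matches describe letters and are not evidence of binding.

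Each gene lies on its own stretch of the Rnor_6.0 genome, with no other row of the table overlapping it. Aqp4 (ENSRNOG00000016043) spans positions 6765945 to 6782996 of chromosome 18 with 4 transcripts, and Slc1a2 (ENSRNOG00000005479) spans 92640752 to 92665644 of chromosome 3 with 1 transcript. Slc1a3 (ENSRNOG00000016163) spans 57860834 to 57935363 of chromosome 2 with 4 transcripts, and Glul (ENSRNOG00000049560) spans 71331052 to 71340229 of chromosome 13 with 1. Gja1 (ENSRNOG00000000805) spans 37876650 to 37889089 of chromosome 20 with 1 transcript, and Gjb6 (ENSRNOG00000022116) spans 37400889 to 37410848 of chromosome 15 with 2. Atp1b2 (ENSRNOG00000011227) spans 56205625 to 56211891 of chromosome 10 with 1 transcript. For Slc1a2 and Glul, RefSeq lists RNA starts that lie farther apart, in its own build, than the span of the deposited row, so these rows may not hold every transcript of the gene.

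The levels are given as FPKM, the fragments of a gene scaled to the length of its RNA and to the total of the library. Comparison between genes by FPKM therefore rests on the length used for each gene. Deposited counts summed to 55223193 to 61707722 per control library and to 47843590 to 60941939 per EA library. The lowest count of any of the 7 genes in a library was 4505, that of Gjb6 in EA 5, so counting error is small beside the differences below. Genes of the mitochondrial genome took 19.4% to 23.9% of counts in control and 21.6% to 25.1% in EA libraries, with the highest share in EA 3, which was also the shallowest. The structural RNA Rn7sl1 stood at 188 FPKM in EA 2 and 298 FPKM in EA 5, against 4.70 to 11.98 FPKM in the other 8 libraries, so values without these 2 libraries are given in the closing section.

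Glul was the most abundant of the 7 by mean FPKM, followed by Slc1a2, Atp1b2, Slc1a3, Gja1, Aqp4 and Gjb6. Glul lay above Slc1a2 in 10 of 10 libraries, with no overlap between their ranges. All other neighbors in this order overlapped. Slc1a2 exceeded Atp1b2 in 4 of 10 libraries, Atp1b2 exceeded Slc1a3 in 8, Slc1a3 exceeded Gja1 in 2, Gja1 exceeded Aqp4 in 8 and Aqp4 exceeded Gjb6 in 5. The place of Slc1a3 above Gja1 by the mean thus rests on 2 libraries. This order also rests on the lengths behind FPKM. Slc1a2 had only 0.282 times the count per FPKM of Gja1. By count, Slc1a2 lay below Gja1, Atp1b2 and Slc1a3 in every library.

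**Figure D1:**
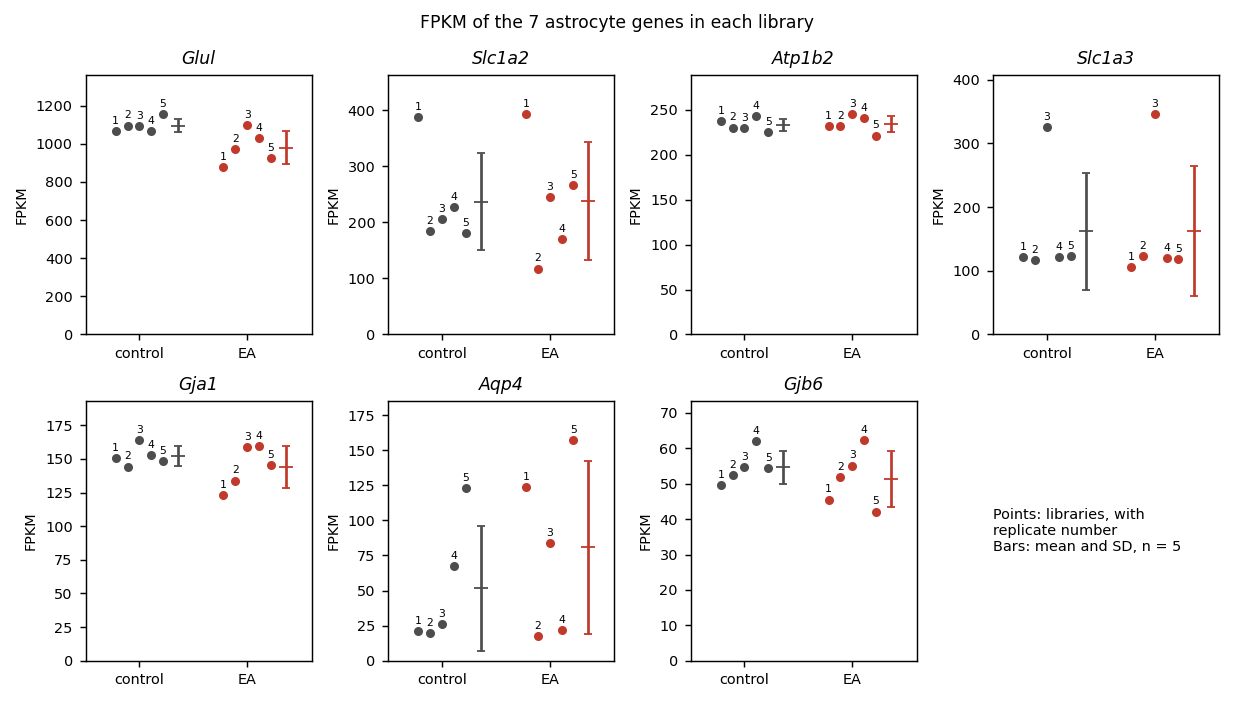
FPKM of each of the 7 genes (vertical axes, each from 0) in the 5 control and 5 EA libraries. Points are libraries with their replicate number and bars give the mean and SD. Aqp4 ranged from 17.3 to 157 FPKM, Slc1a3 stood high only in control 3 and EA 3, and Glul and Atp1b2 stayed close to their means.

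Aqp4 had the widest spread. In the control libraries it measured 21.0, 19.9, 26.1, 67.6 and 123 FPKM in replicates 1 to 5. In the EA libraries it measured 124, 17.3, 84.1, 21.8 and 157 FPKM in the same order. Control 4 and 5 and EA 1, 3 and 5 were thus high and the other 5 libraries lay between 17.3 and 26.1 FPKM, so that both groups held libraries at both levels and overlapped fully. EA 5, the highest, stood 9.05-fold above EA 2, the lowest. The mean was 51.5 ± 44.5 FPKM (SD, n = 5) in control and 80.7 ± 61.5 FPKM (SD, n = 5) in EA. The fold change of 1.59 had a 95% interval from 0.589 to 4.30 (log2 0.67, SE 0.66, edgeR's quasi-likelihood test, adjusted p = 0.700), an interval that spans a fall as well as a several-fold rise. Without EA 5 the log2 fold change was 0.30, and without control 5 it was 1.29.

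Of the glutamate carriers, Slc1a2 measured 389, 185, 205, 227 and 180 FPKM in control 1 to 5. In EA 1 to 5 it measured 393, 118, 245, 170 and 266 FPKM. Control 1 and EA 1 were the highest and close to each other, EA 2 was the lowest, and the groups overlapped. The means were nearly equal, at 237 ± 86.6 FPKM in control and 238 ± 105 FPKM in EA (SD, n = 5 each). The log2 fold change was 0.02 (SE 0.30, 95% interval -0.63 to 0.68, edgeR, adjusted p = 0.984). It was 0.29 without control 1 and -0.23 without EA 1.

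Slc1a3 measured 122, 117, 325, 122 and 123 FPKM in control 1 to 5. In EA 1 to 5 it measured 106, 123, 346, 119 and 118 FPKM. It was thus high in 1 library of each group, control 3 and EA 3, while the other 8 libraries lay between 106 and 123 FPKM. The group means of 162 ± 91.4 FPKM in control and 163 ± 103 FPKM in EA (SD, n = 5 each) both lie where no library does. The log2 fold change was 0.04 (SE 0.39, 95% interval -0.81 to 0.90, edgeR, adjusted p = 0.980). It turned to -0.46 without EA 3 and rose to 0.47 without control 3. That both high libraries carry the number 3 is given as a fact of the labels. The highest library also shared its number between the groups for Aqp4 (control 5 and EA 5) and for Slc1a2 (control 1 and EA 1). Not every number matched, as Aqp4 lay below its group mean in control 1 and above it in EA 1. Over all genes together the same-numbered libraries did not deviate together (correlations from -0.003 to 0.061 over the 5 numbers). Those correlations do not describe single genes, and what the numbers stand for was not tested.

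Glul measured 1067, 1095, 1091, 1068 and 1155 FPKM in control 1 to 5. In EA 1 to 5 it measured 879, 972, 1096, 1030 and 923 FPKM. All EA libraries except EA 3 lay below the lowest control library. The mean was 1095 ± 35.9 FPKM in control and 980 ± 85.8 FPKM in EA (SD, n = 5 each). The log2 fold change of -0.14 (SE 0.07, 95% interval -0.28 to 0.01) missed the threshold in edgeR (adjusted p = 0.391). In DESeq2 the adjusted p was 0.297. Without EA 3 the log2 fold change was -0.19, with an adjusted edgeR p of 0.143.

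The connexin Gja1 measured 151, 144, 164, 153 and 149 FPKM in control 1 to 5, and 123, 134, 159, 160 and 145 FPKM in EA 1 to 5. EA 1 and EA 2 were the lowest and the other EA libraries lay within the control range. The mean was 152 ± 7.26 FPKM in control and 144 ± 15.8 FPKM in EA (SD, n = 5 each), with a log2 fold change of -0.05 (SE 0.07, 95% interval -0.22 to 0.11, edgeR, adjusted p = 0.805). This value was 0.000176 without EA 1.

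Its partner Gjb6 measured 49.6, 52.4, 54.7, 62.1 and 54.4 FPKM in control 1 to 5, and 45.5, 51.9, 55.1, 62.2 and 42.2 FPKM in EA 1 to 5. EA 5 and EA 1 were the lowest and replicate 4 was the highest of each group. The mean was 54.6 ± 4.61 FPKM in control and 51.4 ± 7.93 FPKM in EA (SD, n = 5 each), with a log2 fold change of -0.06 (SE 0.10, 95% interval -0.28 to 0.15, edgeR, adjusted p = 0.827). Without EA 5 it was 0.01.

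The pump subunit Atp1b2 was the steadiest, with 237, 230, 230, 243 and 226 FPKM in control 1 to 5 and 232, 232, 245, 241 and 221 FPKM in EA 1 to 5. Its highest library stood only 1.11-fold above its lowest. The mean was 233 ± 6.99 FPKM in control and 234 ± 9.30 FPKM in EA (SD, n = 5 each). The log2 fold change was 0.03 (SE 0.05, 95% interval -0.07 to 0.13, edgeR, adjusted p = 0.816), so a change of more than 1.10-fold in either direction lay outside the interval.

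A gene was called at an adjusted p (Benjamini-Hochberg over all genes tested) under 0.05 and a fold change above 1.2. By edgeR, 0 of the 7 genes were called in either direction, where 0.0198% of all tested genes were called higher and 0% lower. At an unadjusted p under 0.05 there were also 0 of 7, where 6.59% of all genes lay higher and 7.15% lower. DESeq2 likewise called 0 of 7, against a background of 0.564% higher and 0.793% lower, and gave 1 of 7, Glul, an unadjusted p under 0.05. The FPKM of the groups overlapped in all 7 genes, whereas in 2.25% of all genes every EA library lay below every control library and in 0.85% every EA library lay above. FPKM takes no account of the mitochondrial share, whose range lay higher in EA libraries but overlapped that of control. The counts tested were scaled for composition (TMM). With edgeR calling so few genes of all, the absence of calls among 7 genes says little about them, and the intervals above carry more.

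The spread was measured as the SD of log2 CPM (counts scaled to the TMM-adjusted library total) around the group means. It was 1.32 for Aqp4, 0.690 for Slc1a3 and 0.575 for Slc1a2, against a median of 0.157 over all tested genes. Genes with low levels vary more, so the comparison of use is with the genes at a mean of 10 FPKM or more. Among these, 50 genes had a spread at least as wide as that of Aqp4, 99 as that of Slc1a3 and 128 as that of Slc1a2, counting the gene itself, which places the 3 at the percentiles 99.2, 98.5 and 98.0. Gjb6 (SD 0.179) stood at percentile 86.9, Gja1 (0.132) at 71.3, Glul (0.111) at 56.0 and Atp1b2 (0.0652) at 13.3 of the same genes.

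**Figure D2:**
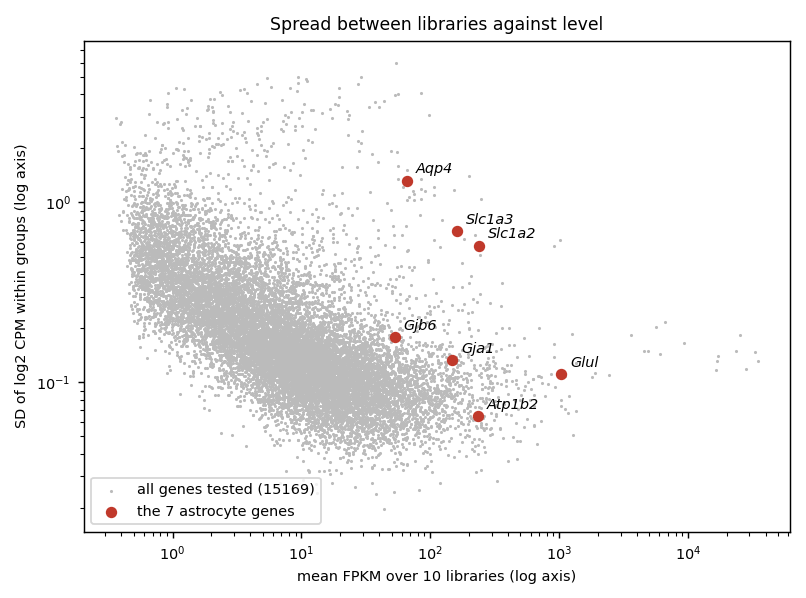
SD of log2 CPM within groups (vertical, log axis) against mean FPKM over 10 libraries (horizontal, log axis) for the 15169 tested genes, with the 7 astrocyte genes in red. Aqp4 (1.32), Slc1a3 (0.690) and Slc1a2 (0.575) lie above most genes of their level, and Atp1b2 (0.0652) lies low.

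The 3 variable genes were high in different control libraries, Aqp4 in control 4 and 5, Slc1a2 in control 1 and Slc1a3 in control 3. In the EA group Aqp4 and Slc1a2 shared their libraries. EA 1, 3 and 5 were the 3 highest and EA 2 and EA 4 the 2 lowest for both genes. EA 3 was also the EA library with the high Slc1a3 level. Over the 10 libraries, with the group means removed, Pearson's r was 0.44 between Aqp4 and Slc1a2 (Spearman's rho 0.50), -0.01 between Aqp4 and Slc1a3 (rho -0.27) and -0.00 between Slc1a2 and Slc1a3 (rho -0.27). These points share a library and its scaling, and the values are descriptions only. Without the 2 libraries farthest from the median of the first-named gene of each pair, r was 0.46, -0.02 and 0.38. Control 3 and EA 3, the high libraries of Slc1a3, stayed in, so the values with Slc1a3 still hold its extremes.

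**Figure D3:**
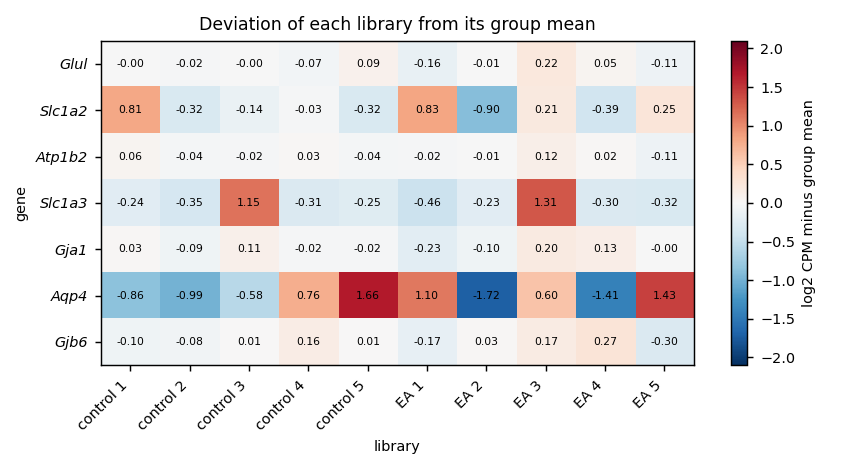
Deviation of each library (columns) from the mean of its group in log2 CPM for each of the 7 genes (rows), with the value in each cell and red for above and blue for below. Aqp4 deviates in every column, and in the EA columns Slc1a2 deviates in the same direction as Aqp4, with Slc1a3 at 1.15 in control 3 and 1.31 in EA 3.

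The FPKM ratio of Slc1a2 to Slc1a3, the 2 astrocyte glutamate carriers, ranged among control libraries from 0.631 (control 3) to 3.20 (control 1). Among EA libraries it ranged from 0.7096 (EA 3) to 3.71 (EA 1). The groups overlapped, and the mean log2 ratio differed by -0.02 (EA minus control), or by -0.34 without control 3 or EA 1 and by 0.25 without EA 3. The ratio of the connexins Gja1 to Gjb6 was narrower, at 2.47 to 3.04 in control and 2.56 to 3.45 in EA, with a difference of 0.02. The ratio of Slc1a2 to Glul, uptake against conversion, was 0.156 to 0.364 in control and 0.121 to 0.447 in EA, with a difference of 0.12, which was -0.13 without EA 1 and 0.34 without EA 2. A ratio within a library does not depend on its depth or scaling, but its size depends on the lengths used for FPKM. By count, Slc1a2 lay below Slc1a3 in every library (21058 against 29744 in control 1). The difference between groups does not depend on length, and for Slc1a2 to Slc1a3 it was also -0.02 in counts.

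Glul and Gja1 followed the astrocyte markers of each library most closely. Of a list of 15 astrocyte markers that holds none of the 7 genes, 14 had a row and all 14 were tested. Over the 10 libraries, with group means removed, r with the mean of these markers was 0.94 for Glul (rho 0.93), 0.90 for Gja1 (rho 0.78), 0.70 for Slc1a3 (rho 0.66), 0.67 for Gjb6 (rho 0.71) and 0.64 for Atp1b2 (rho 0.50). Without the 2 libraries farthest from the median of the gene itself, these were 0.78, 0.77, 0.62, 0.66 and 0.20. The 2 libraries left out differ between genes, so these values are not compared with one another. The value of Atp1b2 rests on its own 2. Aqp4 (r -0.03, rho -0.12) and Slc1a2 (r -0.15, rho -0.32) did not follow the markers over the 10 libraries. Without the 2 libraries farthest for each gene, r was -0.30 for Aqp4 and 0.31 for Slc1a2, so the sign for Slc1a2 rests on its own 2. Libraries, depth and scaling are shared here too.

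The summed FPKM of the 14 markers was 3187 to 3453 in control and 2875 to 3287 in EA libraries, so the groups overlapped. This sum was lowest in EA 1 and EA 5, which were also the 2 lowest libraries for Glul. Of the 14 markers, 12 had a log2 fold change below 0, with a median of -0.08, where 50.5% of all genes lay below 0 at a median of -0.00178. None was called by edgeR or DESeq2, and 2 (Aldoc, log2 -0.15, adjusted p = 0.257, and Fgfr3, log2 -0.19, adjusted p = 0.287) had an unadjusted edgeR p under 0.05. Of all genes, 7.15% lay lower at that threshold. Gfap, the filament protein that reactive astrocytes raise, stood at a log2 fold change of 0.18 (adjusted p = 0.399). These 3 were named after their values were seen. In bulk tissue, a difference in astrocyte number and one in RNA per astrocyte could not be told apart. The part of the marker level in the Glul value was not tested.

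Of the markers of other cells edgeR called 0, and DESeq2 called 2 lower, the endothelial genes Vwf and Tie1, which were named after their values were seen. Of all genes, DESeq2 called 0.793% lower. The 8 tested endothelial markers all had log2 fold changes below 0 (median -0.23), and their summed FPKM was 196 to 210 in control and 154 to 186 in EA libraries. All 8 mural markers lay below 0 (median -0.16), with sums of 153 to 176 and 144 to 159 FPKM that overlapped between groups. Of the oligodendrocyte markers, 9 of 10 lay below 0 (sums 1025 to 1479 and 910 to 1174 FPKM, which overlapped). The neuron markers (2877 to 3068 and 2669 to 3287 FPKM), the microglia markers (244 to 258 and 212 to 271 FPKM) and the striatal markers (121 to 137 and 116 to 144 FPKM) overlapped between groups. The blood markers summed to 7.68 to 43.0 FPKM in control and 6.30 to 15.9 in EA libraries, and the meninges and choroid plexus markers to 14.0 to 27.5 and 13.5 to 26.6 FPKM, with the choroid plexus gene Ttr at a mean of 0.248. No marker with a row was at 0 in every library. The part of these markers in the values of the 7 genes was not tested.

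Partner genes of each role were then compared between the groups. Of all genes tested, 6.59% lay higher and 7.15% lower at an unadjusted edgeR p under 0.05. DESeq2 called 0.564% higher and 0.793% lower. The counts for the lists below are read beside these shares. At the endfoot, Aqp4 is held in place by the dystrophin complex and works beside the potassium channel Kcnj10. Of 17 such anchor and partner genes, 15 were tested, 11 had a log2 fold change below 0 (median -0.06), edgeR called 0 and DESeq2 called 0. At an unadjusted edgeR p under 0.05, 0 lay higher and 2 lower. Kcnj10 (Kir4.1) measured 84.7 ± 4.88 FPKM in control and 70.5 ± 4.84 in EA (SD, n = 5 each). Its control libraries ran from 77.9 to 90.6 FPKM and its EA libraries from 63.0 to 75.6, without overlap. In 2.25% of all genes every EA library likewise lay below every control library. The log2 fold change of -0.24 (SE 0.07) had an adjusted p of 0.190 in edgeR and of 0.0391 in DESeq2, with a fold too small for a call. Agrn, the matrix protein agrin, stood at -0.16 (SE 0.05, edgeR, adjusted p = 0.216). Mlc1, a membrane protein of astrocyte junctions, stood at -0.05.

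Of 9 other aquaporins only 3 passed the filter on low values, and edgeR and DESeq2 called 0 of them. Aqp9 had means of 5.67 FPKM in control and 5.08 in EA, and Aqp1 of 1.48 and 1.33. Aqp11, an intracellular aquaporin, measured 9.35 ± 0.543 FPKM in control and 7.97 ± 0.613 in EA (log2 fold change -0.21, SE 0.08, edgeR, adjusted p = 0.302). It was the 1 aquaporin at an unadjusted p under 0.05. In every library all 3 lay below the lowest Aqp4 value.

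Glutamine leaves astrocytes through Slc38a3 (SNAT3), which belongs to a list of 12 genes of the glutamate-glutamine cycle, all of them tested. Slc38a3 measured 49.8 ± 1.58 FPKM in control and 40.7 ± 3.14 in EA (SD, n = 5 each), with control libraries from 48.5 to 51.9 FPKM and EA libraries from 38.1 to 45.4. It was called lower by DESeq2 (adjusted p = 0.00303) and missed the threshold in edgeR (log2 fold change -0.27, SE 0.05, adjusted p = 0.155). It was the 1 gene of this list that DESeq2 called, and edgeR called 0. At an unadjusted edgeR p under 0.05, 2 genes lay lower, Slc38a3 and the glutaminase Gls2 (log2 fold change -0.16), and 2 higher, Gad2 (0.19) and Gad1 (0.15), which make GABA in interneurons. Gad1 was named after its value was seen. The enzymes Glud1, Got1 and Got2, which also turn over glutamate, had log2 fold changes of 0.00, 0.02 and -0.00.

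Of 8 other glutamate carriers, 6 were tested and 0 were called by edgeR or DESeq2, or had an unadjusted edgeR p under 0.05. Slc17a7 (VGLUT1), which loads glutamate into vesicles of cortical neurons, measured 323 ± 20.6 FPKM in control and 326 ± 20.1 in EA (log2 fold change 0.04). The neuronal carrier Slc1a1 (EAAC1) measured 25.8 ± 1.602 and 27.0 ± 1.22 FPKM (log2 fold change 0.09), and Slc1a4, a carrier of neutral amino acids in the same family, 22.9 ± 2.17 and 23.5 ± 2.87 FPKM (0.06). The spread of these 3, the most abundant of the list, was far below that of Slc1a2 and Slc1a3, with SDs of log2 CPM of 0.0745, 0.0719 and 0.149. Less abundant carriers of the list spread more, with a highest SD of 0.391 among the 6 tested, also below both.

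Of 20 other connexins and pannexins, 10 were tested, with 8 log2 fold changes below 0 and 0 calls by edgeR or DESeq2. The 1 gene at an unadjusted edgeR p under 0.05 was Panx2, a channel protein of neurons and glia, at 63.2 ± 3.38 FPKM in control and 55.0 ± 2.18 in EA (log2 fold change -0.18, SE 0.05, adjusted p = 0.205).

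Of 12 other genes of the sodium pump, 10 were tested, 6 had a log2 fold change below 0, and edgeR and DESeq2 called 0. At an unadjusted edgeR p under 0.05, 0 of these pump genes lay higher and 1 lower. The beta subunit Atp1b1, more typical of neurons, measured 345 ± 11.5 FPKM in control and 358 ± 54.3 in EA (SD, n = 5 each), with a log2 fold change of 0.07.

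**Figure D4:**
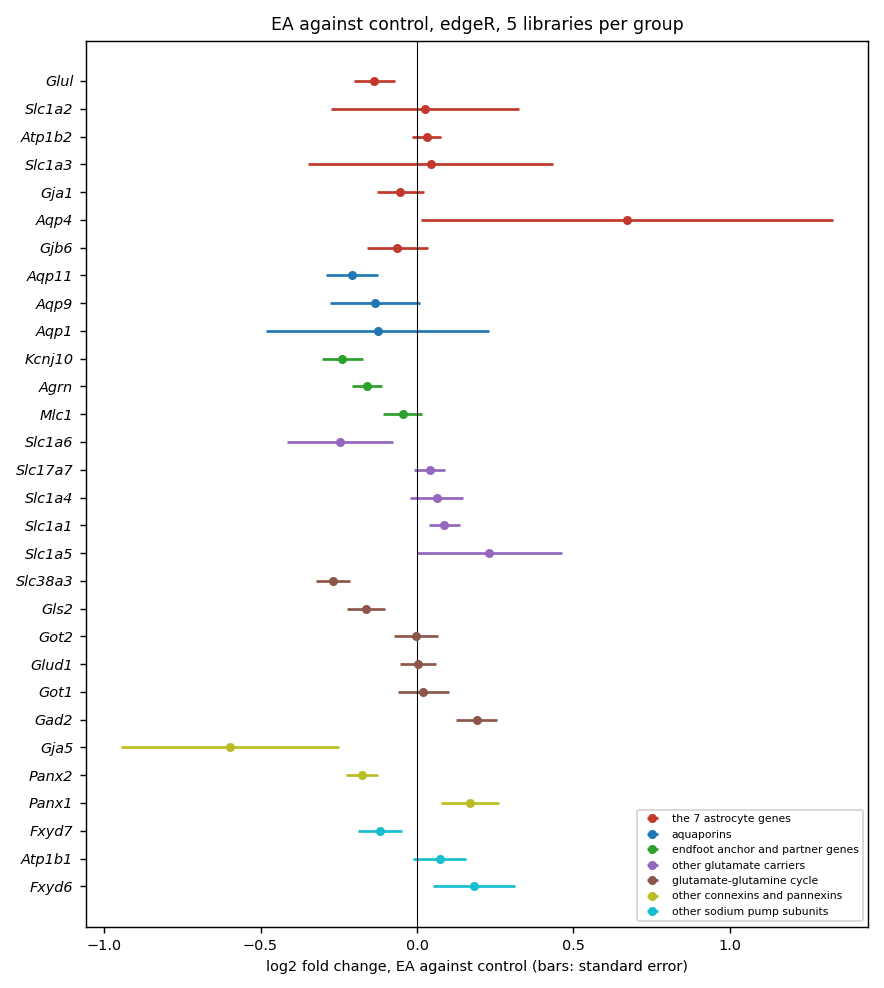
Log2 fold change of EA against control (horizontal) with its standard error (bars), from edgeR over 5 libraries per group, for the 7 astrocyte genes in red and other genes of their roles in other colors. The bar of Aqp4 is the widest of the 7 at 0.66 and that of Atp1b2 the narrowest at 0.05, and Slc38a3 (-0.27) and Kcnj10 (-0.24) lie left of 0 with narrow bars.

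The gene whose pattern over the 10 libraries was most like that of each member, with group means removed, was found by Pearson's r over all tested genes. For Gja1 it was Mlc1 (r 0.97, rho 0.94), for Glul it was Gosr1 (r 0.95), for Gjb6 it was Grn (r 0.97) and for Atp1b2 it was Plac9 (r 0.95). For Slc1a2 it was Zbtb41 (r 0.98), at a mean of only 1.04 FPKM, and for Aqp4 it was AABR07030524 (r 0.94), at 0.828 FPKM. For Slc1a3 it was Brsk1 (r 0.96, rho 0.68), whose spread was only 0.118. For the mean profile of the 7 genes the 5 closest were Zfp691, Rgl3, Csdc2, Tmem176b and Tm4sf1 (r 0.92 to 0.94). These are the highest values among 15169 genes over 10 libraries that share scaling and depth, so they are given as a description.

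The counts and the FPKM of a gene are not independent measurements. Per library, the count divided by the FPKM of each gene kept a fixed ratio to that of Gja1, with a coefficient of variation of at most 0.0150% over the 10 libraries. The ratio was 1.73 for Aqp4, 1.27 for Slc1a3 and 0.282 for Slc1a2. Both columns therefore hold the same differences between libraries, and the spread of Aqp4, Slc1a2 and Slc1a3 could not be set against a second measurement. The FPKM come from transcripts assembled with StringTie, and no source says how the counts were obtained. The part of that assembly in the spread was not tested.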

How the data were processed

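Cortical poly(A) RNA of 5 EA and 5 control libraries was compared. The authors trimmed the reads with Cutadapt, aligned them with HISAT2 to Rnor_6.0, assembled transcripts with StringTie and merged them with gffcompare. The submitters' processing notes list Bowtie 0.12.2, HISAT2 2.0 and StringTie 1.3.0. The authors computed FPKM with ballgown and deposited it beside whole-number counts for each gene and library. No source says how these counts were obtained, and their sums exceed the valid reads the study lists, so errors taken from them may be too small. The lowest FPKM in the file stands for 0.

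Groups came from the sample labels. Genes reaching 0.5 FPKM in 5 or more of the 10 libraries were tested on the deposited counts with edgeR 4.0.16 (TMM, quasi-likelihood F test, Benjamini-Hochberg) in R 4.3.3. The standard error is the log2 fold change divided by the root of F, and intervals are 95%. Alternatives used DESeq2 1.42.0, limma 3.58.1 on log2(FPKM + 0.1) and log2(FPKM + 1), other scalings and filters, a replicate block and left-out libraries. The fit was checked on simulated counts. Tables and figures used pandas 2.3.3, scipy 1.17.1 and matplotlib 3.10.9. RefSeq promoter windows (GRCr8) matched all 7 symbols.

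The 7 genes and all lists were chosen with earlier results of these data known. Of the other role lists, the text names the genes called by edgeR or DESeq2, up to 3 with the lowest edgeR p and up to 3 with the highest mean FPKM, drawn from these where not all are given, and of likeness the genes with the highest r. Genes of other lists, markers included, were named after their values were seen. Some genes that this rule names are not reported here.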

Additional observations from a re-analysis of the deposited data

Results flagged for a closer look

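In 14 groups of 5 libraries (7 genes, control and EA), the highest and the lowest library were each set against Dixon's critical value of 0.71 for the gap to the nearest library over the range of the group. Chance passes this value in about 1 group in 20. The genes were chosen with their spread known, so the values are a description and not a test. Of these groups, 3 passed, and no explanation is weighed here. Slc1a2 in control 1, at 388.508 FPKM, stood apart from the other control libraries (gap over range 0.774). Slc1a3 in control 3, at 325.198 FPKM, stood apart from the other control libraries (0.971), and Slc1a3 in EA 3, at 345.927 FPKM, from the other EA libraries (0.930). No value of Aqp4 passed, since its libraries lie at several levels in both groups.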

How the results depend on the processing

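None of the 7 genes was called under any of 19 alternatives, and the lowest adjusted p of any of them was 0.143, for Glul. Genes called over the whole table numbered 3 higher and 0 lower in edgeR, and 69 higher and 97 lower with DESeq2. With limma they numbered 1 higher and 1 lower on log2(FPKM + 0.1), and 3 higher and 1 lower on log2(FPKM + 1). DESeq2 and both limma fits gave 1 of the 7, Glul, an unadjusted p under 0.05. Slc1a2 and Slc1a3, whose log2 fold changes are near 0, turned to -0.047 and -0.024 in both limma fits. Without EA 2 and EA 5, 2 genes were called higher and 2 lower. In that fit Gjb6 stood at 0.026, Aqp4 at 0.61, Slc1a2 at 0.21 and Slc1a3 at 0.28. Glul stood at -0.093, Gja1 at -0.013 and Atp1b2 at 0.073, and the log2 ratio of Slc1a2 to Glul at 0.30. Other scalings (size factors of DESeq2, or without mitochondrial genes) and other filters changed no direction among the 7. The cause of these shifts was not tested.

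Over all genes together, same-numbered libraries did not deviate together (no correlation above 0.1, and 2 of 5 numbers, 2 and 4, correlated best with their own). Single genes could differ from this, as Aqp4, Slc1a2 and Slc1a3 each had a same-numbered library highest in both groups. With the replicate number as a block, 0 genes were called higher, Slc1a2 stood at -0.024 and Slc1a3 at -0.00122.

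Leaving out each library in turn gave 1 to 5 genes called higher (5 without EA 3, 1 without control 5 or EA 5), 0 to 1 lower (1 without control 1 or EA 1), and 0 to 1 of the 7 at an unadjusted p under 0.05 (Glul without EA 3). Log2 fold changes ran from 0.30 to 1.29 for Aqp4, -0.23 to 0.29 for Slc1a2, -0.46 to 0.47 for Slc1a3, -0.19 to -0.10 for Glul, -0.10 to 0.000176 for Gja1, -0.13 to 0.0079 for Gjb6 and 0.01 to 0.06 for Atp1b2. The log2 ratios ran from -0.34 to 0.25 (Slc1a2 to Slc1a3), -0.06 to 0.05 (Gja1 to Gjb6) and -0.13 to 0.34 (Slc1a2 to Glul). Summing the rows of a symbol could give no other value, as each has 1 row. With 5 libraries per group, the spread of Aqp4, Slc1a2 and Slc1a3 leaves wide intervals.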
